A study of Mus musculus with 8 samples.

Results

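The products of 10 genes form plasma lipoproteins or load them with lipid, and the RNA of these genes was followed through liver RNA-seq of 8 libraries. The members were the apolipoprotein genes Apoa1, Apoa2, Apoa4, Apoa5, Apob, Apoc1, Apoc2, Apoc3 and Apoe, together with Mttp. They were taken by gene symbol from the deposited table, 10 of 55487 genes, and all 10 were found and passed the filter on low values. All libraries came from liver of male wild-type C57BL/6N mice. In normal diet + oil (3 libraries) the mice ate standard chow, drank tap water and received corn oil. In western diet + oil (2 libraries) they ate a high-fat diet, drank water with 23.1 g/L fructose and 18.9 g/L glucose, and received corn oil. In normal diet + CCl4 (2 libraries) chow was combined with carbon tetrachloride, a liver toxin, and in western diet + CCl4 (1 library) the high-fat, high-sugar regimen was combined with it. Oil and CCl4 were injected into the peritoneum weekly. The CCl4 dose, how long the diets were fed and how old the mice were are not given in the sources used here.

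Lipoproteins carry triglyceride and cholesterol through plasma. The liver builds very-low-density lipoprotein (VLDL) around 1 molecule of apolipoprotein B, and microsomal triglyceride transfer protein, the product of Mttp, loads lipid onto it in the endoplasmic reticulum. Apolipoproteins A1 and A2 are the main proteins of high-density lipoprotein (HDL), apolipoprotein E is a ligand for uptake receptors, and the small C apolipoproteins and A5 govern how fast lipoprotein lipase hydrolyses the triglyceride. Apolipoprotein A4 is secreted on triglyceride-rich particles and HDL, mainly by the intestine and, in mice, also by the liver.

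In all, 7 of the members lie in 2 gene clusters. Coordinates are from GENCODE M21 on GRCm38. The Apoa1 cluster spans chr9:46228580-46271919, a length of 43.34 kb, and holds Apoa1 (+ strand), Apoc3 (- strand), Apoa4 (+ strand) and Apoa5 (+ strand), in that order. The Apoe cluster spans chr7:19671579-19699188 over 27.61 kb and holds Apoc2, Apoc1 and Apoe, all on the - strand. Apoa2 is at chr1:171225054-171226379, Apob at chr12:7977648-8016835 and Mttp at chr3:138089854-138144968.

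The upstream sequences of 4 members are shown because Apoa4 moved far more than its neighbours Apoa1 and Apoa5, and because Apoc2 was the other member with large differences. Each is the part of the RefSeq promoter window (GRCm38.p6) that lies upstream of both the RefSeq and the GENCODE start, 5′ to 3′ along the gene. Capitals mark matches to the motifs searched.
Apoa4 (chr9:46240594-46240695, + strand): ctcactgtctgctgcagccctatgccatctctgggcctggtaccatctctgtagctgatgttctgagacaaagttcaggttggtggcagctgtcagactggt
Apoa1 (chr9:46228380-46228579, + strand): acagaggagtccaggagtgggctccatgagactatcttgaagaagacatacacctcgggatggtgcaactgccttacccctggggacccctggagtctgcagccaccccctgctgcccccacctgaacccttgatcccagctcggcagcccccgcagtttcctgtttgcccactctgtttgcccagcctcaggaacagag
Apoa5 (chr9:46268383-46268632, + strand): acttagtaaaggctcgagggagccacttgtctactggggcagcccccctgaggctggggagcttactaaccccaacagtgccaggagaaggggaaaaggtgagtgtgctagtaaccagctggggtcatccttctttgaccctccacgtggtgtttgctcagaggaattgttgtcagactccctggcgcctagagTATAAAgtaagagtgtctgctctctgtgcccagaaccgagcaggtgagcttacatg
Apoc2 (chr7:19677942-19678191, - strand): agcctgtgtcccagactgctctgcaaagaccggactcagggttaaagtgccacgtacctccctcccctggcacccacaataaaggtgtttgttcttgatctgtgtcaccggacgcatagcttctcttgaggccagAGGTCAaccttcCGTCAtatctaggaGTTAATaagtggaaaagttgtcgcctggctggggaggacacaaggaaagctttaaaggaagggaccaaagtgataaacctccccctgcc
The motifs, searched on both strands, were a nuclear receptor half-site (AGGTCA) and a half-site for the hepatocyte factor HNF1 (GTTAAT). For the core of sites for the hepatocyte factor HNF4A, only the spelling CAAAGTC was searched. They also included a half-site of the cyclic AMP response element (TGACG), the TATA box in its form TATAAA, the box of Sp1-like factors written GGGCGG, and the box named for its letters CCAAT. Apoa4 and Apoa1 held none of these letter strings in their windows. Apoa5 held TATAAA with its first base at -56 from the RefSeq start, a string present in 13.6% of all 32851 windows of the same length. Apoc2 held AGGTCA at -115 (16.3% of windows), TGACG on the other strand at -103 (20.8%) and GTTAAT at -89 (7.10%). The HNF4A core, the GGGCGG box and the CCAAT box, in 4.44%, 35.7% and 37.4% of all windows, were in none of the printed stretches. These are matches of letters only.

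Levels are FPKM, fragments normalised to transcript length and to the mapped fragments of the library, a scale that allows genes to be compared per length. The FPKM summed to 514832 to 612747 per library, 12531 to 14843 genes stood above 0, and depth is unknown. Major urinary protein genes, 22 in number, took 15.6% to 30.6% of the sum in normal diet + oil, 8.16% to 8.61% in western diet + oil, 2.33% to 3.98% in normal diet + CCl4 and 7.06% in western diet + CCl4. Against normal diet + oil, the median log2 fold change over all tested genes was 0.22 for western diet + oil, 0.26 for normal diet + CCl4 and 0.19 for western diet + CCl4, and median-of-ratios scaling set these medians near 0. Changes below are on the log2(FPKM + 1) scale as deposited, with the distance from this median added where it matters. Hepatocyte markers were high in every library, with summed FPKM of 7 genes between 28210 and 33624 in the controls, 25095 and 33505 in western diet + oil, and 32295 in western diet + CCl4. No marker had a log2 fold change above 0 under western diet + oil, where their median was -0.11, beside 0.22 for all tested genes. The sum was higher in both normal diet + CCl4 libraries, at 47493 and 52087. There 0 of 7 markers were called by limma, and 4 of 7 had an unadjusted p below 0.05 (22.8% of all tested genes did). Most of that sum was Alb, at 38054 and 32099 FPKM against 18436 to 21307 in the controls. Log2 fold changes were above 0 for 6 of the 7, while Fgb was lower, at 598 and 591 FPKM against 937 to 1076. The part of this higher sum in the normal diet + CCl4 values of the members was not tested. In whole liver, fewer cells of a type and less RNA per cell cannot be told apart.

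The 10 members supplied 4.60% to 10.8% of all FPKM in a library. Apoe ranked between first and 19th among all genes by FPKM, and Apoa1 between the fifth and 24th. Apoa2 (5266 to 14140 FPKM) and Apoc1 (4965 to 11293) were of the same order, Apoc3 lay lower (1195 to 2915), and Apoa5, Apob and Mttp lay between 34.8 and 514 FPKM. For 8 members the highest library exceeded the lowest by 1.59-fold (Mttp) to 3.15-fold (Apoe). The same ratio was 49.4 for Apoa4 and 39.6 for Apoc2.

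**Figure D1:**
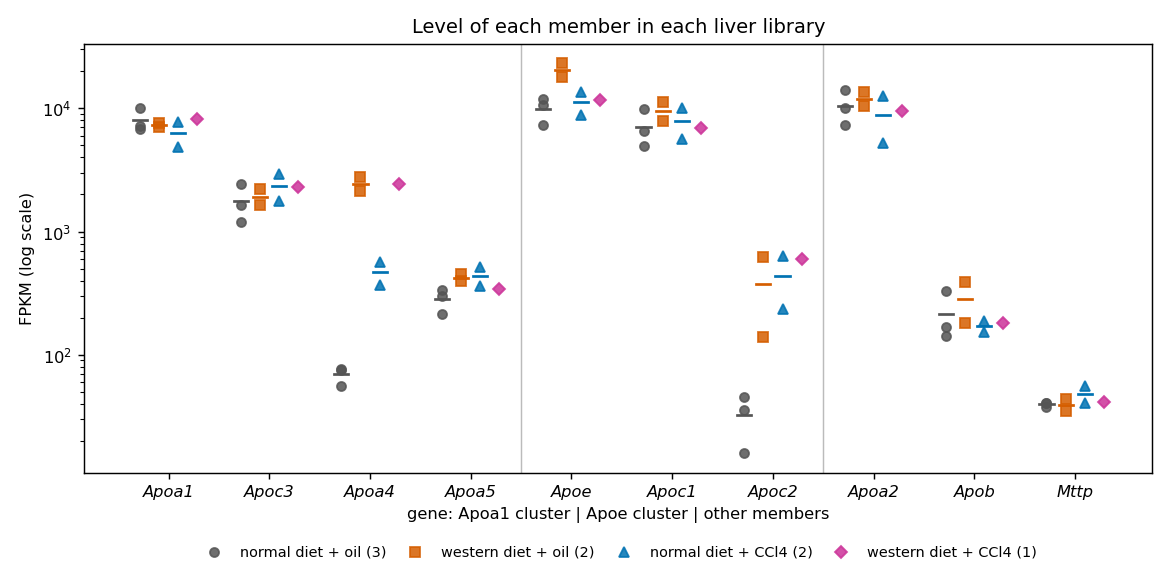
FPKM (log scale) of each member, with 1 point per library, coloured by group (number of libraries in brackets), and short lines at group means. Apoa4 and Apoc2 are spread over more than a decade, while the other members stay within 3.15-fold of their own lowest library.

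The western diet was compared with normal diet, both with oil, to ask what the diet did to lipoprotein genes. Apoa4 and Apoc2 rose, 2 of 10 members, and none fell. The share of all 11514 tested genes called in this comparison was 4.41%. Tests were limma fits across all tested genes with Benjamini-Hochberg adjustment, and a gene was called at an adjusted p below 0.05. The median log2 fold change of the 10 members was 0.44, beside 0.22 for all tested genes.

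Apoa4 stood at 75.8, 76.8 and 55.8 FPKM in normal diet + oil libraries 1, 2 and 3. It stood at 2144 and 2756 FPKM in western diet + oil libraries 1 and 2. Both western diet libraries were far above every control, and by FPKM the gene ranked 39 and 44 among all genes there, against 675 to 777 in the controls. The group means were 69.5 ± 11.8 (SD, n = 3) and 2450 ± 433 (SD, n = 2). The log2 fold change was 5.12 ± 0.27 (SE; 95% interval 4.51 to 5.74), a 34.9-fold rise (limma, adjusted p = 0.000351). Of all tested genes, 0.0174% had a larger log2 fold change.

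CCl4 on normal diet was compared with the same controls. Apoa4 rose there too, the 1 member of 10 that was called, beside 1.42% of all tested genes. The 2 normal diet + CCl4 libraries held 570 and 367 FPKM of Apoa4, above all controls and below both western diet libraries. The log2 fold change was 2.72 ± 0.27 (SE), or 6.57-fold (limma, adjusted p = 0.00518), and the adjusted p was 0.0552 without the filter on low values. Under western diet + CCl4 the single library held 2416 FPKM, between the western diet + oil libraries. Against normal diet + oil its log2 fold change was 5.12 ± 0.34 (SE), or 34.7-fold (limma, adjusted p = 0.00218), with that library assumed to vary like the others. Apoa4 was again the 1 member called, beside 0.929% of all tested genes. These 3 comparisons share their 3 control libraries.

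The other 3 genes of the Apoa1 cluster were not called in any comparison. Apoa1, the main HDL protein, stood at 10005, 7210 and 6810 FPKM in the controls and at 7026 and 7572 under western diet + oil. The groups overlapped, with a log2 fold change of -0.11 ± 0.28 (SE; 95% interval -0.76 to 0.53; limma, adjusted p = 0.838). Apoa1 held 7732 and 4834 FPKM under normal diet + CCl4 and 8167 under western diet + CCl4. Neither differed from the controls beyond the spread (limma, adjusted p = 0.413 and 0.962).

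Apoc3, whose product inhibits triglyceride clearance, held 2432, 1635 and 1195 FPKM in the controls, 1632 and 2206 under western diet + oil, 1773 and 2915 under normal diet + CCl4, and 2299 under western diet + CCl4. All treated libraries but normal diet + CCl4 library 2 lay within the range of the controls. Its log2 fold changes were 0.17 ± 0.35, 0.44 ± 0.35 and 0.45 ± 0.45 (SE), and none was called (limma, adjusted p = 0.797, 0.44 and 0.678). Apoa5, a liver protein that promotes lipolysis by lipoprotein lipase, stood at 299.97, 337 and 215 FPKM in the controls. It stood at 395 and 452 under western diet + oil, at 364 and 514 under normal diet + CCl4, and at 343 under western diet + CCl4. Every treated library was above every control, by a narrow margin in western diet + CCl4. The log2 fold changes of Apoa5 were 0.60 ± 0.26, 0.63 ± 0.26 and 0.30 ± 0.33 (SE), and none was called (limma, adjusted p = 0.215, 0.205 and 0.717).

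Set against Apoa1 in the same library, which removes any factor common to the library, Apoa4 was 0.757%, 1.07% and 0.820% of Apoa1 in the controls. It was 30.5% and 36.4% under western diet + oil, 7.37% and 7.60% under normal diet + CCl4, and 29.6% under western diet + CCl4. The ratio did not overlap between normal diet + oil, normal diet + CCl4 and western diet + oil, and the western diet + CCl4 library was just below the western diet + oil libraries. Apoc3 stayed between 17.6% and 29.1% of Apoa1 in 7 libraries and was 60.3% in normal diet + CCl4 library 2. Apoa5 stayed between 3.00% and 5.96% in those 7 libraries and was 10.6% in the same library, where Apoa1 was at its lowest. Both western diet + oil libraries, at 5.63% and 5.96%, were above the 3.00% to 4.67% of the controls. Apoa4 was 0.155% to 0.209% of the summed FPKM of the 10 members in the controls, 4.45% and 4.47% under western diet + oil, 0.813% and 1.83% under normal diet + CCl4, and 5.73% under western diet + CCl4.

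**Figure D2:**
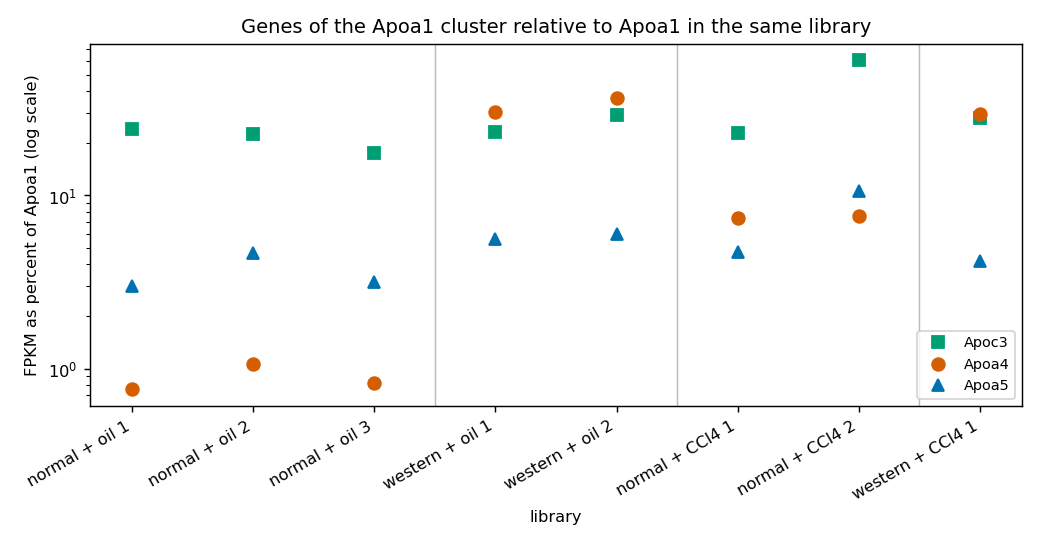
FPKM of Apoc3, Apoa4 and Apoa5 as a percentage of Apoa1 in the same library (log scale), with 1 point per library and vertical lines between the groups. Apoa4 rises from about the level of 0.757% to 1.07% in controls to 29.6% to 36.4% with western diet, while over all libraries but normal diet + CCl4 library 2 Apoc3 lies between 17.6% and 29.1% and Apoa5 between 3.00% and 5.96%.

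The genes on either side of the cluster were examined next. The 10 tested neighbours, the farthest 399.889 kb away, held log2 fold changes from -0.17 to 0.90 under western diet + oil, -0.19 to 1.01 under normal diet + CCl4 and -0.42 to 0.55 under western diet + CCl4. By limma 0 of the 10 were called in each of the 3 comparisons, and 0, 2 and 1 of them had an unadjusted p below 0.05, beside 23.3%, 22.8% and 15.3% of all tested genes. Within the cluster, 1 of 4 genes was called in each comparison, and that was Apoa4 each time. Of the 6 members outside it, 1 (Apoc2) was called under western diet + oil and 0 in the other 2 comparisons. The shares of all tested genes called were 4.41%, 1.42% and 0.929%. The median log2 fold change under western diet + oil was 0.39 for the 4 cluster genes and 0.44 for the 6 others, beside 0.22 for all tested genes. Under normal diet + CCl4 these medians were 0.53 and 0.16, beside 0.26 for all tested genes. Under western diet + CCl4 they were 0.37 and 0.04, beside 0.19. Apoa4 lies far from its cluster's median in each of them.

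**Figure D3:**
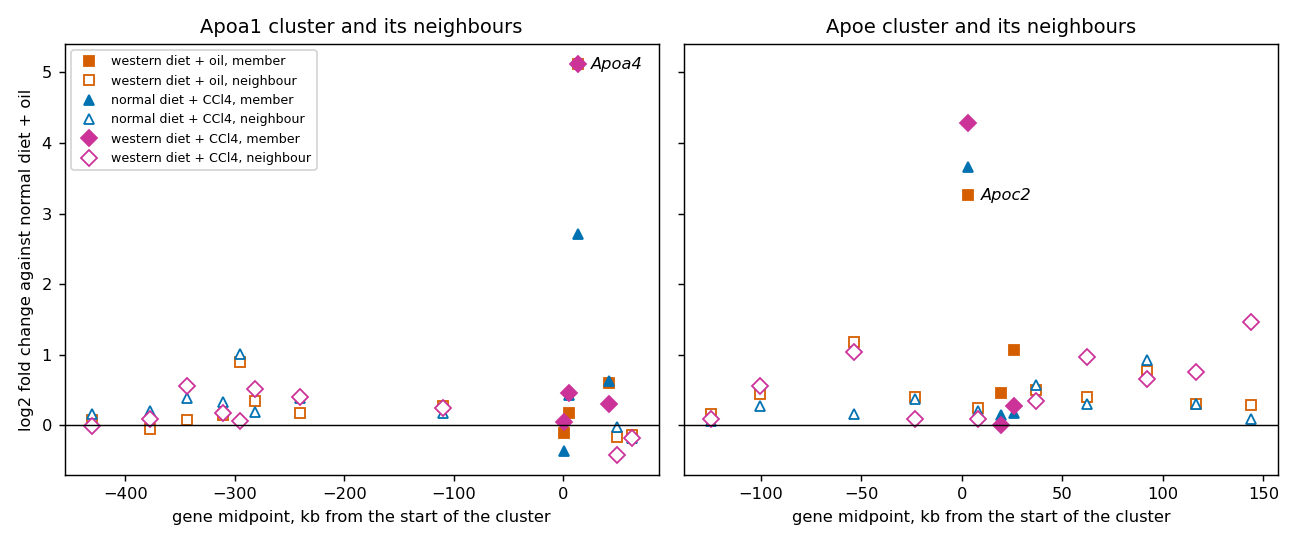
Log2 fold change against normal diet + oil (vertical axis) by distance of the gene's midpoint from the start of its cluster in kb (horizontal axis), for the Apoa1 cluster (left) and the Apoe cluster (right). Filled symbols are members and open symbols their neighbours. With western diet + oil, Apoa4 stands at 5.12, while the 10 neighbours of its cluster lie between -0.17 and 0.90.

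In the Apoe cluster, Apoc2 held large and variable differences. Its product is the cofactor that lipoprotein lipase requires. Apoc2 stood at 15.9, 45.2 and 35.7 FPKM in the controls and at 140 and 618 FPKM under western diet + oil. It stood at 631 and 234 FPKM under normal diet + CCl4 and at 596 FPKM under western diet + CCl4. All treated libraries exceeded all controls, but replicates of a treated group differed several-fold. Under western diet + oil Apoc2 rose by a log2 fold change of 3.27 ± 0.70 (SE), or 9.64-fold (limma, adjusted p = 0.0454). The call did not survive leaving out any single library of either group, and the adjusted p of limma was 0.349 without western diet + oil library 2. The log2 fold change was 3.65 ± 0.70 under normal diet + CCl4 and 4.29 ± 0.89 under western diet + CCl4 (SE), and neither was called (limma, adjusted p = 0.0545 and 0.082). Both were called in 3 of their alternatives, and for both these include the fit of the compared groups alone and the fit without normal diet + CCl4 library 2.

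Apoc2 shares most of its exons with another annotated gene. Gm44805, named here after its values were seen, lies on the same strand. It shares 646 exon bases with Apoc2, 79.5% of Apoc2's 813 exon bases and 84.4% of its own 765. Another 119 of its exon bases, 15.6%, are shared with Apoc4, which shares 0 exon bases with Apoc2. Fragments from shared bases could be listed under either of the genes that share them. Gm44805 took 94.3%, 81.0% and 81.4% of the summed FPKM of Apoc2 and Gm44805 in the controls. It took 81.3% and 41.9% under western diet + oil, 43.2% and 43.5% under normal diet + CCl4, and 32.0% under western diet + CCl4. The share of Gm44805 was below that of every control in 4 of the 5 treated libraries and inside the control range in western diet + oil library 1. Its part in the values of Apoc2 was not tested.

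The sum of Apoc2 and Gm44805 was 278, 237 and 191 FPKM in the controls. It was 748 and 1063 FPKM under western diet + oil, 1112 and 413 under normal diet + CCl4, and 877 under western diet + CCl4. Every treated library was above every control also in the sum, by a smaller factor than for Apoc2 alone. Tested as 1 gene, an alternative chosen after seeing the data, the sum had a log2 fold change of 1.93 ± 0.41 under western diet + oil (limma, adjusted p = 0.0425). It was 1.54 ± 0.41 under normal diet + CCl4 and 1.91 ± 0.51 under western diet + CCl4 (SE), neither of them called (limma, adjusted p = 0.113 and 0.146).

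**Figure D4:**
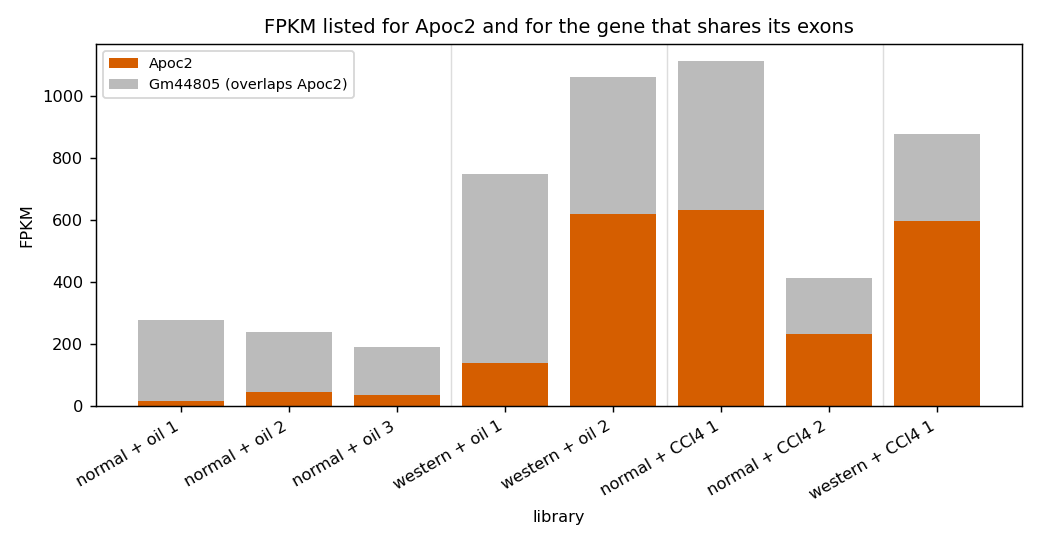
FPKM listed for Apoc2 (orange) and for Gm44805 (grey), which shares its exons, stacked for each library, with vertical lines between the groups. In normal diet + oil 81.0% to 94.3% of the 191 to 278 FPKM is listed under Gm44805. In the treated libraries the sum is larger, and the share listed under Apoc2 is larger in all but western diet + oil library 1.

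Apoe had the highest FPKM of the 10 genes in 7 of the 8 libraries, and Apoa2 in 1. It stood at 11815, 10568 and 7346 FPKM in the controls and at 18111 and 23109 FPKM under western diet + oil, where it was the second and the first of all genes. Both western diet + oil libraries exceeded every other library. The log2 fold change was 1.07 ± 0.30 (SE; 95% interval 0.38 to 1.76), 0.86 above the median of all genes, and was not called (limma, adjusted p = 0.0817). Under normal diet + CCl4 Apoe held 8854 and 13502 FPKM and under western diet + CCl4 11784, and 1 of these 3 libraries lay above the control range (limma, adjusted p = 0.713 and 0.773). Apoc1, which encodes an inhibitor of lipoprotein uptake, held 4965 to 9797 FPKM in the controls, 7856 and 11293 under western diet + oil, 5641 and 10117 under normal diet + CCl4, and 6863 under western diet + CCl4. Its groups overlapped in all 3 comparisons, and none was called (limma, adjusted p = 0.488, 0.808 and 0.998). Of the 10 tested neighbours of the Apoe cluster, 1 was called under western diet + oil, beside 4.41% of all tested genes. That was Relb, an NF-kappaB subunit, 1.18 ± 0.26 higher on the log2 scale (limma, adjusted p = 0.0469). Its level was low, at 1.64 and 1.40 FPKM against 0 to 0.377 in the controls, and it passed the filter only through treated libraries. An unadjusted p below 0.05 was reached by 5 of the 10 neighbours under western diet + oil, beside 23.3% of all tested genes. It was reached by 2 under normal diet + CCl4, beside 22.8%, and by 5 under western diet + CCl4, beside 15.3%. By limma 0 were called in the latter 2. All 10 had log2 fold changes above 0 in each comparison, beside 76.7%, 83.9% and 72.2% of all tested genes.

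Apoa2, Apob and Mttp, which lie apart from both clusters, were not called in any of the 3 comparisons against normal diet + oil. Apoa2, the other main HDL protein, held 14140, 10084 and 7344 FPKM in the controls, 10394 and 13515 under western diet + oil, 5266 and 12522 under normal diet + CCl4, and 9489 under western diet + CCl4. The 2 normal diet + CCl4 libraries were the lowest and the third highest of all. Apob held 331, 143 and 168 FPKM in the controls, 181 and 387 under western diet + oil, 187 and 154 under normal diet + CCl4, and 181 under western diet + CCl4. Library 1 of the controls and library 2 of western diet + oil stood well above the rest. Mttp was the steadiest member, with 40.8, 40.5 and 37.4 FPKM in the controls and 34.8 to 55.6 FPKM in the treated libraries. For western diet + oil its log2 fold change was -0.02 ± 0.20 (SE; 95% interval -0.47 to 0.44; limma, adjusted p = 0.969).

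**Figure D5:**
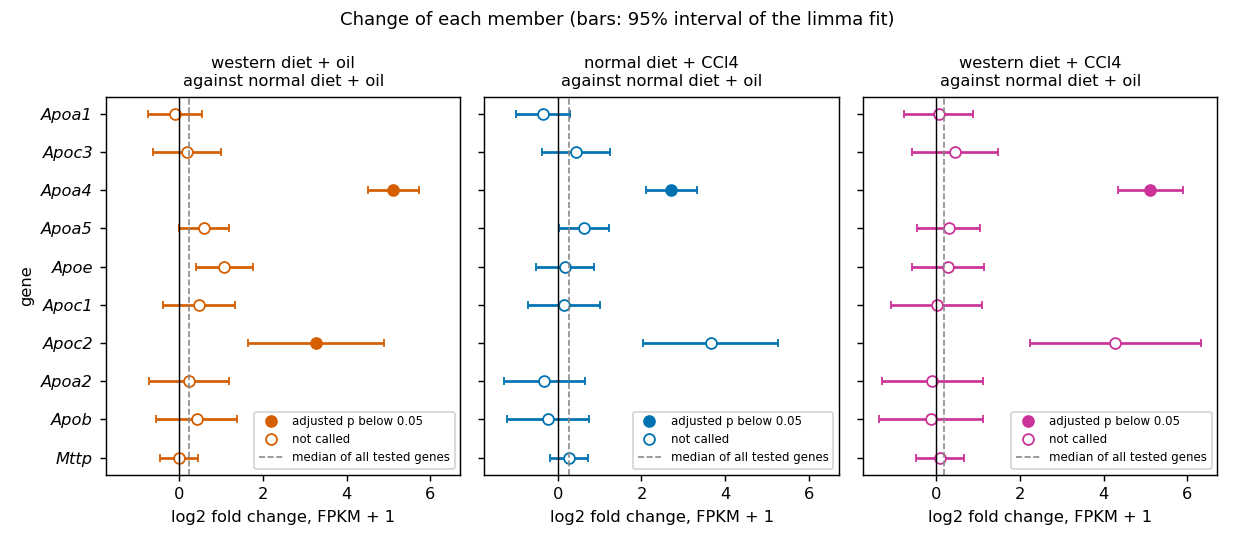
Log2 fold change of each member against normal diet + oil with its 95% interval, for western diet + oil, normal diet + CCl4 and western diet + CCl4. Filled points had an adjusted p below 0.05 and the dashed line is the median of all tested genes. Apoa4 is called in all 3 panels and Apoc2 in the first, while the intervals of most other members cross 0.

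The treated groups were also compared with each other. Apoa4 was higher under western diet + oil than under normal diet + CCl4, by a log2 fold change of 2.41 ± 0.29 (SE) or 5.30-fold (limma, adjusted p = 0.0191). It was the 1 member of 10 called, beside 0.617% of all tested genes. This call was lost without the filter on low values and when library 2 of normal diet + oil or either library of western diet + oil was left out, with adjusted p-values up to 0.152. Between western diet + CCl4 and western diet + oil, 0 members were called by limma, 0 had an unadjusted p below 0.05 (4.19% of all tested genes did), and 0.0434% of all tested genes were called. The count stayed at 0 in all 16 alternatives. The log2 difference of Apoa4 there was -0.01 ± 0.36 (SE; 95% interval -0.83 to 0.82). Apoe was lower in the western diet + CCl4 library than in both western diet + oil libraries, by a log2 difference of -0.80 ± 0.40 (SE) that was not called (limma, adjusted p = 1). Between western diet + CCl4 and normal diet + CCl4, 0 members were called by limma, beside 0.261% of all tested genes, and 1 had an unadjusted p below 0.05, beside 7.10% of all tested genes. That was Apoa4, at 2.40 ± 0.36 (SE; adjusted p = 0.0545), which was called in 3 of 16 alternatives.

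The interaction term asks whether the change with CCl4 differed between diets. For Apoa4 it was -2.73 ± 0.45 on the log2 scale (SE; 95% interval -3.75 to -1.70; limma, adjusted p = 0.147). No member was called (0 of 10), 1 had an unadjusted p below 0.05 (9.78% of all tested genes did), and 0.0608% of all tested genes were called. Without normal diet + CCl4 library 2 the Apoa4 term was -3.04 (limma, adjusted p = 0.0363). For Apoc2 the term was -2.64 ± 1.18 (SE; adjusted p = 0.516). The term rests on the single western diet + CCl4 library.

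Other genes of the lipoprotein pathway were counted in lists, to be read against the 4.41% of all tested genes called under western diet + oil. Under western diet + oil, 3 of 15 tested genes of HDL and triglyceride-rich particle remodelling rose and none fell. They were Lpl, lipoprotein lipase itself, at 2.81 ± 0.46 (limma, adjusted p = 0.0246), Gpihbp1, which anchors that lipase to capillaries, at 1.40 ± 0.24 (adjusted p = 0.0258), and Abcg1, a cholesterol exporter, at 1.40 ± 0.31 (adjusted p = 0.0493). Lpl stood at 1.53 to 3.29 FPKM in the controls and at 21.4 and 24.9 under western diet + oil. Abcg1 was low, at 0.325 to 0.407 FPKM in the controls and at 2.35 and 2.86 under western diet + oil. It passed the filter on low values only through treated libraries. The list's median log2 fold change was 0.19, beside 0.22 for all tested genes. Of 10 lipoprotein receptors and clearance genes, 1 rose, the fatty acid transporter Cd36, at 2.67 ± 0.49 (limma, adjusted p = 0.0294). The median of that list was 0.28.

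Of 18 tested genes of VLDL assembly and secretion, 1 fell and 0 rose under western diet + oil, a share near the 4.41% called over all genes. That was Sort1, a sorting receptor that binds apolipoprotein B, at -1.02 ± 0.22 (limma, adjusted p = 0.0465), from 2.01 to 2.44 FPKM in the controls to 0.732 and 0.414. Sort1 reached 1 FPKM only in the controls and in normal diet + CCl4 library 1. It passed the filter on low values only through those libraries, where it was highest. The median of the list was 0.25, beside 0.22 for all tested genes. The 4 genes of Apob mRNA editing were not called (0 at an unadjusted p below 0.05). Apobec1, the deaminase, had a log2 fold change of 0.84, and its partners A1cf and Rbm47 had log2 fold changes of -0.48 and -0.25. The log2 fold change of Syncrip was 0.45. Of 21 tested regulators of apolipoprotein genes, 0 were called by limma and 4 had an unadjusted p below 0.05. Of 14 other apolipoproteins, 0 were called and 2 had an unadjusted p below 0.05, and both lists lie under the 23.3% of all tested genes.

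Under normal diet + CCl4, 0 genes of these 6 lists were called by limma. An unadjusted p below 0.05 was reached by 6 of 14 other apolipoproteins, 6 of 21 regulators, 4 of 18 genes of VLDL assembly, 3 of 15 of particle remodelling, 2 of 10 receptors and 2 of 4 editing genes, beside 22.8% of all tested genes. Under western diet + CCl4, 0 genes of these lists were called either. There an unadjusted p below 0.05 was reached by 6 of 14 other apolipoproteins, 4 of 15 genes of particle remodelling, 3 of 10 receptors, 2 of 18 genes of VLDL assembly, 0 of 21 regulators and 0 of 4 editing genes, beside 15.3% of all tested genes.

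Markers of other cell types were read in the same libraries. Macrophage markers (13 genes) summed to 81.6 to 168 FPKM in the controls, 634 and 1285 under western diet + oil, 180 and 572 under normal diet + CCl4, and 545 under western diet + CCl4. Of these, 9 of 13 rose under western diet + oil, beside 4.41% of all tested genes called. Under normal diet + CCl4 and western diet + CCl4, 0 were called by limma. There 6 and 10 of 13 had an unadjusted p below 0.05, beside 22.8% and 15.3% of all tested genes. Log2 fold changes were above 0 for 11 and 12 of the 13. Timd4 was lower under normal diet + CCl4, at 0.560 and 0.409 FPKM against 0.758 to 1.88 in the controls. The mean of Marco was 2.26 FPKM there against 3.36 in the controls. Timd4 stood at 0.935 FPKM in western diet + CCl4, against a control mean of 1.30. Macrophages are known to make Apoe, Apoc2 and Lpl, and their part in these values was not tested. Erythroid markers (5 genes) summed to 230 to 350 FPKM in the controls, 554 and 928 under western diet + oil, 253 and 282 under normal diet + CCl4, and 732 under western diet + CCl4. That sum is carried by 4 globin genes, while Alas2, the enzyme that starts heme synthesis in red cells, stood at 39.3 to 39.8 FPKM in the controls and at 32.1 and 28.9 under western diet + oil (log2 fold change -0.37 ± 0.27, limma, adjusted p = 0.457). Of 10 enterocyte markers, 8 were at 0 in every library (Vil1, Alpi, Sis, Lct, Fabp6, Cdx1, Cdx2 and Muc13). Cdh17 was above 0 only in normal diet + CCl4 library 1, at 1.59 FPKM. The remaining marker Fabp2, an intestinal fatty acid-binding protein, stood at 28.1 to 56.4 FPKM in the controls and at 127 and 150 under western diet + oil, a rise of 1.70 ± 0.34 on the log2 scale (limma, adjusted p = 0.0381).

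Genes with the most similar pattern were found by the root mean square difference of log2(FPKM + 1) over the 8 libraries, each gene centred on its own mean. For Apoa4 they were Rad51b (0.92), Ubd (0.92) and Fabp4 (0.98). In the controls Rad51b held 0 to 0.874 FPKM, Ubd 0 to 0.733 and Fabp4 3.09 to 5.79. Ubd did not keep the order of groups of Apoa4. It held 8.19 and 11.1 FPKM in western diet + oil, 11.9 and 3.29 in normal diet + CCl4, and 36.7 in western diet + CCl4. For Apoc2 they were Ifi27l2b (0.60), Cd63 (0.61) and S100a11 (0.81). Among the members, the nearest to Apoa4 was Apoc2, at 1.22, and the closest pair was Apoc1 and Apoa2, at 0.22. These distances describe 8 libraries that share 4 group means and were not tested.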

How the data were processed

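Liver RNA of 8 libraries was measured by RNA-seq (TruSeq Stranded mRNA, per the labels' protocols). The authors deposited FPKM for 55487 genes. The submitters' processing notes name the build GRCm38 with StringTie 2.1.0, HISAT2 2.2.1, cutadapt 3.7 and FastQC 0.11.9. Their roles are not given in the sources used here. No counts were used, so depth is unknown. On log2(FPKM + 1), the 11514 genes that reached 1 FPKM in 2 or more libraries were fitted with 4 group means in limma 3.58.1 (R 4.3.3, eBayes with a trend, two-sided, Benjamini-Hochberg per contrast, 7.93 total degrees of freedom). The fit was tested on simulated data. No source says that libraries were separate animals, so p-values measure only how far these libraries spread, and that spread may be technical. The members and lists were chosen with earlier results of these data known. The named genes were the members, in other lists up to 4 called genes with the smallest p (all in lists of at most 5 genes), called neighbours and the 3 nearest patterns. Promoter windows were in RefSeq for 8 of 10 members. Symbols of 7 of 8 hepatocyte markers were found. Alternatives were another pseudocount, other filters, other scalings, robust eBayes, a replicate block, the compared groups alone and each library left out. Summing Apoc2 and Gm44805 was chosen after seeing the data.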

Additional observations from a re-analysis of the deposited data

How the results depend on the processing

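Apoa4 kept its call in 17 of 17 alternatives with western diet + oil (log2 fold change 4.85 to 5.30), in 16 of 16 with western diet + CCl4 and in 16 of 17 with normal diet + CCl4. Apoc2 lost its call with western diet + oil in 11 of 17 and kept it in 6. Members called there numbered 1 with a pseudocount of 0.1, no filter, median-of-ratios scaling, the Mup family removed, robust eBayes or the replicate block, and 1 to 2 with a library left out (1 without any library of the compared groups). With normal diet + CCl4 the count was 0 without a filter, 2 at a mean FPKM of at least 5, 2 with only the groups compared, and 1 to 2 with a library left out (2 without normal diet + CCl4 library 2). With western diet + CCl4 it was 2 with only the groups compared and 1 to 2 with a library left out (2 without either normal diet + CCl4 library). Western diet + oil against normal diet + CCl4 gave 0 without a filter and 0 to 1 with a library left out. Western diet + CCl4 against normal diet + CCl4 gave 1 at a mean FPKM of at least 5, under median-of-ratios scaling and with the Mup family removed. The interaction gave 0 to 1 with a library left out. The number of all genes called moved with the setting too. With normal diet + CCl4 it was 18 of 16535 without a filter and 112 of 5524 at a mean FPKM of at least 5. With only the groups compared it was 98 of 10686, beside 164 of 11514 as first fitted. With western diet + oil it was 345 at a pseudocount of 0.1, 121 without a filter and 283 under median-of-ratios scaling. It was 313 with the Mup family removed, 486 under robust eBayes and 32 with the replicate block, beside 508. The causes were not tested.

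Same-numbered libraries had correlations of their deviations from -0.28 to -0.01, so the numbers were not taken as pairs. With the replicate block 1 member was called with western diet + oil, and reversed log2 fold changes were -0.23 for Apoa1, -0.094 for Apoc1 and -0.089 for Mttp (western diet + CCl4), -0.011 for Apoa2 and -0.072 for Apoc3 (western diet + oil), and -0.088 for Apoc1 and -0.031 for Apoe (normal diet + CCl4).

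No called value reversed. Under median-of-ratios scaling the reversed values were -0.18 for Apoa1, -0.23 for Apoc1 and -0.15 for Mttp (western diet + CCl4), -0.048 for Apoa2 and -0.097 for Apoc3 (western diet + oil), and -0.19 for Apoc1, -0.16 for Apoe and -0.060 for Mttp (normal diet + CCl4). Apoa4 was at 0.032 between western diet + CCl4 and western diet + oil. With the Mup family removed they were -0.095 for Apoa1, -0.14 for Apoc1 and -0.065 for Mttp (western diet + CCl4). With Apoc2 and Gm44805 summed, the difference was -0.024 between western diet + CCl4 and western diet + oil and 0.39 between western diet + oil and normal diet + CCl4.

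With a library left out, values that crossed 0 with western diet + oil were Apoa1 (-0.22 to 0.058), Apoa2 (-0.011 to 0.46), Apob (-0.14 to 0.95), Apoc3 (-0.072 to 0.44) and Mttp (-0.18 to 0.14). With normal diet + CCl4 they were Apoa2 (-0.95 to 0.30), Apob (-0.47 to 0.13), Apoc1 (-0.28 to 0.56) and Apoe (-0.13 to 0.47). With western diet + CCl4 they were Apoa1 (-0.056 to 0.22), Apoa2 (-0.33 to 0.14), Apob (-0.38 to 0.23) and Apoc1 (-0.23 to 0.26). Between western diet + CCl4 and western diet + oil they were Apoa4 (-0.19 to 0.17) and Apoc2 (-0.052 to 2.09). Apoc2 ranged from -1.45 to 0.68 between western diet + oil and normal diet + CCl4, and from -0.082 to 1.35 between western diet + CCl4 and normal diet + CCl4.

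Over all alternatives, the genes called of all tested ranged from 4 to 1159 with western diet + oil, 18 to 1165 with normal diet + CCl4, 6 to 486 with western diet + CCl4, and 1 to 122, 0 to 140, 3 to 109 and 0 to 168 in the other comparisons, beside 508, 164, 107, 71, 5, 30 and 7. The share of calls that were higher was 86.4% with western diet + oil as deposited and 74.9% under median-of-ratios scaling, and 71.95% and 40.7% with normal diet + CCl4. A fit of only the groups compared was not run for the interaction, and western diet + CCl4 could not be left out where it is compared. The unknown depth limits what can be said of low values.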

Other observations

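Saa1 and Saa2, acute-phase apolipoproteins of HDL that were named after their values were seen, varied more among the libraries than any of the members, while Saa4 ranged from 139 to 320 FPKM. Saa1 stood at 1116, 1923 and 123 FPKM in normal diet + oil, 1384 and 3828 in western diet + oil, 65.7 and 46.2 in normal diet + CCl4, and 12024 in western diet + CCl4. The controls alone spanned over a decade, and the log2 fold change against them was 4.22 ± 1.31 (SE) with western diet + CCl4, which was not called (limma, adjusted p = 0.189). Cfd, which encodes the complement protease adipsin made chiefly by fat cells, stood at 23.3 and 18.8 FPKM in western diet + oil and at 0 to 0.811 in the other libraries. The other 4 adipocyte markers on the list (Adipoq, Plin1, Lep and Retn) were listed at 0 in every library.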
